A study of Mus musculus with 7 samples.

Results

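The Msx1 and Msx2 loci were described here as 2 windows of the mouse genome in build mm9, together with every binding site that the study listed inside them. The Msx1 window ran from 37.8 to 39 Mb on chromosome 5, with the gene near 38.21 Mb, and the Msx2 window from 53.1 to 54 Mb on chromosome 13, with the gene near 53.56 Mb. A site belonged to a window when its midpoint lay inside it, and positions below are in mm9, counted from 1. The windows held 154 of the 91920 entries in 4 deposited lists. Of these, 50 came from the Shox2 palate list, 30 from the Shox2 limb list, 65 from the Pbx limb list and 9 from the list of sites called co-occupied by Shox2 and Pbx. The 9 co-occupied entries repeated Shox2 limb peaks, which left 145 entries in the lists of single libraries. The members were chosen by the positions of peaks, and the windows were selected on earlier results of these lists, with the peak counts known. The counts and overlaps below are therefore descriptions without tests.

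Msx1 and Msx2 are homeodomain transcription factors that act mainly as repressors and are known targets of BMP signalling. Msx1 is needed for palate closure and tooth development, Msx2 for growth of the skull vault, and both act in the limb bud, where they can stand in for each other. Shox2, also a homeodomain factor, is needed for the proximal limb skeleton and the anterior palate. Pbx proteins are TALE-class homeodomain factors that often bind DNA beside other homeodomain proteins.

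Chromatin immunoprecipitation with sequencing was done on freshly dissected mouse embryonic tissue at E12.5 (embryonic day). The groups used were Shox2 in palate and Shox2 in limb, both precipitated with an anti-HA antibody from Shox2-HA tissue, and Pbx in limb, precipitated with an anti-Pbx antibody. Each group was 1 library. The sources used here do not give the strain, the copies of the tagged allele or the number of embryos, and the label of the Pbx library names no tag. The other 4 of the 7 libraries, among them the input and the untagged control, were not analysed here, so no background regions were set against these sites. The files hold positions only, with no read count, height or score. Depth is therefore unknown, and absence from a list does not show that a site was unbound. Palate entries are single positions of 1 bp, and limb entries are intervals. Both limb lists hold exactly 33915 entries and the palate list 15091; how these lengths were set is not given in the sources used here, so a list's length says nothing of how widely its factor bound.

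The promoters of both genes are shown because every site is placed by its distance from these genes, Msx1 on chromosome 5 and Msx2 on chromosome 13. The sequences are those of RefSeq in GRCm38.p6, minus strand, 250 bases before to 50 after the gene start, and both genes were found among the 32851 promoters of that table. Capitals mark matches, on either strand, to TAATTA (a homeodomain core), TGATNNAT (joint Pbx and Hox sites), TGACAG (Meis-type TALE proteins), TATTAA (resembling the core promoter box) or CCAAT (bound by NF-Y).
Msx1: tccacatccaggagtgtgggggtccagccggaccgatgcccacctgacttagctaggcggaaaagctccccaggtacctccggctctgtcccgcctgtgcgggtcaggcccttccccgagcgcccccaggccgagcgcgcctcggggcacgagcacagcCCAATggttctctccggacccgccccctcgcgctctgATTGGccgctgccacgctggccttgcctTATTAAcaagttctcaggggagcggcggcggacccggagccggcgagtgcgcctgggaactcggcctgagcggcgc
Msx2: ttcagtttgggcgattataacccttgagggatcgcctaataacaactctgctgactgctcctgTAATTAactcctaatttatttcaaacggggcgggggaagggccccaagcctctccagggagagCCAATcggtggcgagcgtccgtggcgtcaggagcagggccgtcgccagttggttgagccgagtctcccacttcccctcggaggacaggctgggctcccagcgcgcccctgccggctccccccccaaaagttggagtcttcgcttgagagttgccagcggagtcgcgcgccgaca
Among these motifs, the Msx2 promoter held 1 TAATTA, starting at -187 from the gene start, a motif present in 5.29% of all promoters. The Msx1 promoter held TATTAA at -26 (8.77% of promoters) and 2 CCAAT matches, and Msx2 held 1 CCAAT (37.4% of promoters). Neither stretch of 300 bases contained TGATNNAT or TGACAG, which occurred in 8.85% and 19.2% of promoters. No matches of different motifs overlapped. The peaks are in mm9 and the promoters in another build, so no peak was placed on these sequences.

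The main difference between the windows lay in which list dominated. Beside each list's mean density, palate Shox2 was denser at Msx1 and limb Shox2 less dense. At Msx2 all 3 lists lay above their means, with limb Pbx foremost. The limb Shox2 counts were common ones. Of genome windows as long as that of Msx1, 65.9% held at least as many limb Shox2 peaks, and for Msx2 the share was 17.4%. The Msx1 window held 31 palate Shox2 positions, 9 limb Shox2 peaks and 17 Pbx peaks. The Msx2 window, which is shorter, held 19, 21 and 48.

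In density, palate Shox2 reached 25.8 positions per Mb at Msx1 and 21.1 at Msx2, against 5.94 over the whole list. Limb Shox2 had 7.5 peaks per Mb at Msx1 and 23.3 at Msx2, against 13.3 over its list. Pbx had 14.2 peaks per Mb at Msx1, close to the 13.2 of its list, and 53.3 at Msx2, which was 4.04 times the list's density. Palate entries made up 31 of 40 Shox2 entries at Msx1 (77.5%) and 19 of 40 at Msx2 (47.5%), against 30.8% in the whole lists. The windows were picked with these counts known, and the lists differ in length and entry width, so these shares are descriptions only. The exact 95% intervals given below cover counting error only and treat entries as independent.

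**Figure D1:**
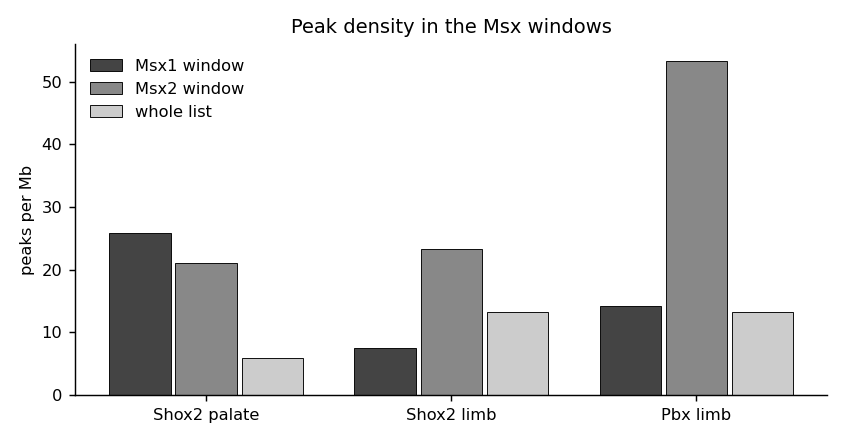
Peaks per Mb (bars) in the Msx1 window, the Msx2 window and the whole list, for each of the 3 lists, 1 library each. Palate Shox2 lay above its list's mean in both windows (25.8 and 21.1 per Mb against 5.94). Limb Shox2 lay below its mean at Msx1 (7.5 against 13.3), and Pbx above its mean at Msx2 (53.3 against 13.2).

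When the genome was cut into windows of the same length, 0.613% of 2122 windows held at least as many palate positions as the Msx1 window. For limb Shox2 the share was 65.9% and for Pbx 39.7%. Of the 2796 windows as long as that of Msx2, 2.65% held as many palate positions, 17.4% as many limb Shox2 peaks and 1.04% as many Pbx peaks. The loci were picked with such counts in view, and nothing is read from these shares beyond their place in the genome.

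Both genes lay in stretches without a limb Shox2 peak. Around Msx1 that stretch was 323 kb long, between the limb peaks at chr5:37961333-37961556 and chr5:38284975-38285213. Around Msx2 it was 209 kb long, between chr13:53416538-53416925 and chr13:53626181-53626433. The typical gap between neighbouring limb Shox2 peaks was 26.8 kb (median), and 4.17% and 7.96% of all gaps were as long as those at Msx1 and Msx2. Long gaps cover much of the genome, however: 37.0% and 49.98% of the span of the list lay in gaps at least that long.

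What the gaps held differed between the genes. The gap around Msx1 contained 12 palate Shox2 positions and 5 Pbx peaks. The gap around Msx2 contained 3 palate positions and 6 Pbx peaks. Among all limb gaps at least as long, 2.97% held as many palate positions as the one around Msx1, and 25.9% as many as the one around Msx2. The median in both sets was 1. These stretches were picked out after the positions were seen.

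**Figure D2:**
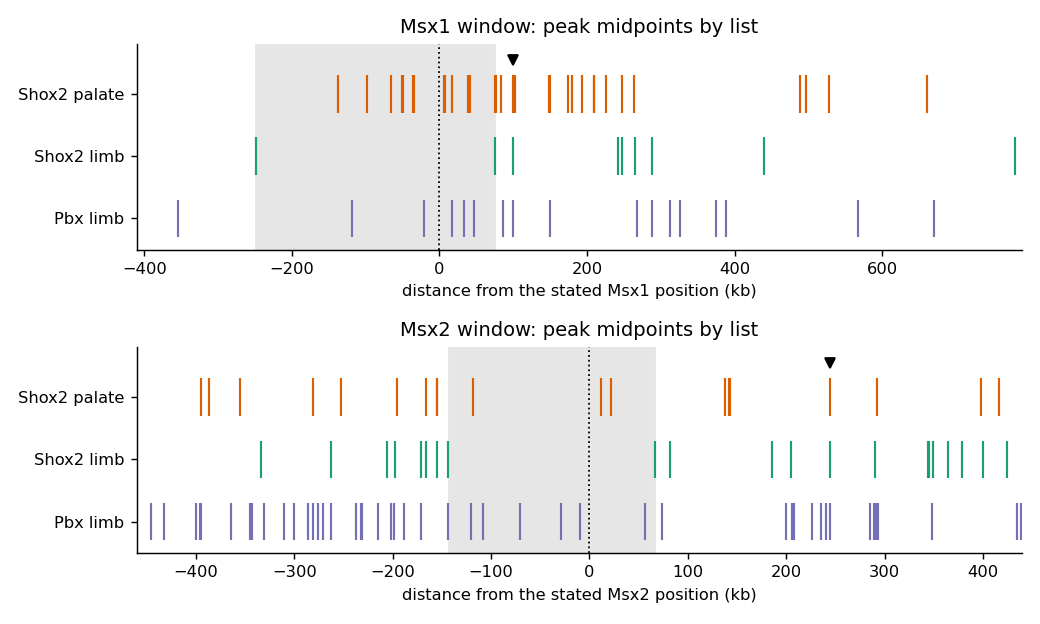
Midpoints of the listed sites (vertical ticks) by distance in kb from the stated gene position (dotted line, rounded to 10 kb), with lower genome positions to the left. Grey marks the stretch free of limb Shox2 peaks (323 kb at Msx1, 209 kb at Msx2), and the triangle marks the site found in all 3 lists, 99.3 kb from Msx1 and 245 kb from Msx2.

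Palate positions near Msx1 were spread over a broad stretch. The 3 bins of 50 kb from 38.15 to 38.3 Mb held 4 each, and so did the 2 bins from 38.35 to 38.45 Mb. Within 100 kb of the stated position there were 15 palate positions, 2 limb Shox2 peaks and 6 Pbx peaks at Msx1. At Msx2 the same distance took in 2, 2 and 5. The gene positions are rounded to 10 kb, so distances under that size are approximate and no site is called a promoter site.

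The palate position nearest to Msx1 was chr5:38215781, 5.8 kb away, followed by chr5:38218154 at 8.2 kb. The first stood at line 11393 of the palate list and the second at line 1464, of 15091. The nearest Pbx peak was chr5:38226986-38228171, 17.6 kb away, and it held the palate position chr5:38227152, low in its list (line 13689). The nearest limb Shox2 peak was 75.1 kb away. Palate positions were thus the closest of the 3 kinds at Msx1.

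At Msx2 a Pbx peak was closest, chr13:53550183-53551061, at 9.4 kb. The nearest palate position, chr13:53571566, was 11.6 kb away on the other side, and it stood low in its list (line 14449 of 15091). The nearest limb Shox2 peak, chr13:53626181-53626433, was 66.3 kb away. The order at Msx2 of Pbx before palate Shox2 rests on a difference smaller than the rounding of the gene position.

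**Figure D3:**
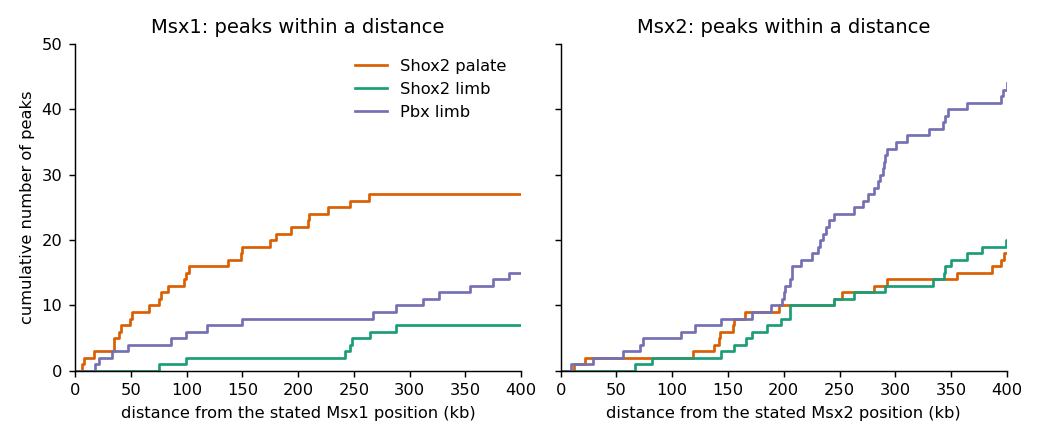
Number of sites (y axis) within a given distance in kb (x axis) of the stated gene position, per list. Palate Shox2 led around Msx1, with 15 positions by 100 kb, while around Msx2 Pbx reached 34 peaks by 300 kb, against 14 palate and 13 limb Shox2 sites.

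All 3 lists were denser above Msx1 than below it. Above Msx1 (toward higher positions) lay 24 palate, 8 limb Shox2 and 14 Pbx sites, and below it 7, 1 and 3. The window reaches farther above the gene than below, 790 against 410 kb, so densities are the fairer measure. They were 30.4 per Mb above and 17.1 below for palate Shox2, 10.1 and 2.44 for limb Shox2, and 17.7 and 7.32 for Pbx. In RefSeq's GRCm38.p6 gene order the protein-coding neighbours are Cytl1 on one side of Msx1 and Stx18, a vesicle fusion protein gene, on the other.

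At Msx2 the Pbx sites leaned the other way. Below the gene lay 30 Pbx peaks (65.2 per Mb) and above it 18 (40.9 per Mb). Palate Shox2 was nearly even, with 10 below and 9 above, and limb Shox2 leaned upward, with 8 below and 13 above. In the same gene order the protein-coding genes before Msx2 are Ror2, a receptor for Wnt5a needed in limb and palate, then Sptlc1, a subunit of the enzyme that starts sphingolipid synthesis, and Gm38564. The next gene after Msx2 is Drd1, a dopamine receptor. Which gene a site acts on was not tested.

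In bins of 50 kb, the fullest at Msx1 was 38.45 to 38.5 Mb, with 2 palate positions, 4 limb Shox2 peaks and 2 Pbx peaks. It held 4 of the 9 limb peaks of the window. At Msx2 the fullest bin was 53.35 to 53.4 Mb, with 2 palate, 4 limb Shox2 and 4 Pbx sites. Palate positions at Msx1 were a median of 15.2 kb apart, against 31.1 kb at Msx2, and Pbx peaks 38.9 kb apart at Msx1 and 12.3 kb at Msx2.

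Each window held exactly 1 site listed for all of palate Shox2, limb Shox2 and limb Pbx, a class that makes up 2.3% of limb Shox2 peaks genome-wide. At Msx1 it was the limb peak chr5:38309147-38309483, 99.3 kb from the gene. The palate position chr5:38309340 lay 25 bp from its midpoint, and the Pbx peak chr5:38308838-38310117 enclosed it. At Msx2 it was chr13:53804420-53804780, 245 kb from the gene, with the palate position chr13:53804612 lying 12 bp from its midpoint inside the Pbx peak chr13:53804156-53805161.

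These 2 sites stood at unlike places in the deposited lists. The Msx1 site came at line 24953 of 33915 in the Pbx list and line 4608 in the limb Shox2 list. The Msx2 site came at line 1732 in the Pbx list and line 10881 in the limb Shox2 list. In the palate list of 15091 lines both were near the top, the Msx1 site at line 1851 and the Msx2 site at line 1481. The files do not say that their order is a ranking. Wider peaks did stand nearer the top (Spearman's rho of width with line -0.58 for limb Shox2 and -0.51 for Pbx, across peaks, which are not replicates).

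Few palate Shox2 positions lay in a limb Shox2 peak at either gene, as in the whole palate list. At Msx1, 3 of 31 palate positions lay in a limb Shox2 peak (9.68%, exact interval 2.04 to 25.8%), and at Msx2 2 of 19 did (10.5%, 1.30 to 33.1%). Both are near the 14.2% of the whole palate list. Overlap with a 1 bp entry misses near sites. With midpoints at most 500 bp apart, 3 of 31 met at Msx1 (9.68%) and 4 of 19 at Msx2 (21.1%), against 19.0% of the palate list. Seen from the limb, 3 of 9 limb peaks at Msx1 held a palate position (33.3%, 7.49 to 70.1%) and 2 of 21 at Msx2 (9.52%, 1.17 to 30.4%), against 6.28% of the whole limb list. The Msx1 window also held many palate positions for its length. The part of that density in the share was not tested, and the interval is wide.

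The shared positions at Msx1 beside the one already described were chr5:38285091 and chr5:38456780. The first stood highest of all Msx1 positions in the palate list, at line 262, and lay 3 bp from the midpoint of the limb peak chr5:38284975-38285213, the one nearest to Msx1. The second, at palate line 1467, lay 36 bp from the midpoint of chr5:38456706-38456926. At Msx2 the other shared position was chr13:53394440, 129.5 bp from the midpoint of chr13:53394148-53394473. It stood at line 7975 of 15091 in the palate list, and the limb peak at line 28243 of 33915 in the limb list.

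Limb Shox2 met Pbx at 2 of 9 peaks at Msx1 (22.2%, exact interval 2.81 to 60.0%) and at 7 of 21 at Msx2 (33.3%, 14.6 to 57.0%), against 26.5% of the whole limb list. Both exact intervals include that value. The share at Msx2 varied with the setting in both directions. It was 7 of 13 within 300 kb of the gene (53.8%, against 26.5%) and 6 of 12 in the first 50% of each list (50%, against 24.4%). With the limb lists cut to the length of the palate list it was 6 of 10 (60.0%, against 24.2%). With every peak set to 200 bp it was 1 of 21 (4.76%, against 16.4%). The values for the cut lists and for 200 bp lay outside the exact interval. Seen from Pbx, 2 of 17 peaks at Msx1 (11.8%) and 7 of 48 at Msx2 (14.6%, exact interval 6.07 to 27.8%) met limb Shox2, against 23.4% of the Pbx list, which lies inside that interval. With the cut lists the share at Msx2 was 30.0%, against 22.7%. These 9 limb peaks, 2 at Msx1 and 7 at Msx2, are the co-occupied entries of the deposited list.

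The second co-occupied peak at Msx1, chr5:38497483-38497977, stood highest of the window in the limb list (line 2430) and lay 148 bp from the midpoint of its Pbx peak. The widest limb peak at Msx1, chr5:38451563-38452177 with 615 bp, met neither other list. The Pbx peak that was widest there (1493 bp) and highest in its list (line 1130), chr5:38090641-38092133, also met no Shox2 site of either tissue.

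At Msx2 the widest Pbx peak and the Pbx peak highest in its list both met limb Shox2. The Pbx peak highest in its list, chr13:53850202-53851840 at line 215, enclosed the widest limb Shox2 peak of the window, chr13:53850339-53850878 with 540 bp. The widest Pbx peak, chr13:53359996-53362871 with 2876 bp, enclosed the limb Shox2 peak that stood highest, chr13:53361922-53362414 at line 1073. Of the 6 Msx2 Pbx peaks in the first 10% of the Pbx list, 5 met limb Shox2, and of the other 42 peaks 2 did. Among the 6, chr13:53371385-53372415 at line 2359 did not. Over the whole Pbx list the shares were 43.1% in the first 10% and 21.2% in the rest. This split was looked at after the places were seen. Wider Pbx peaks stood nearer the top of the list, and the part of width in the split was not tested.

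**Figure D4:**
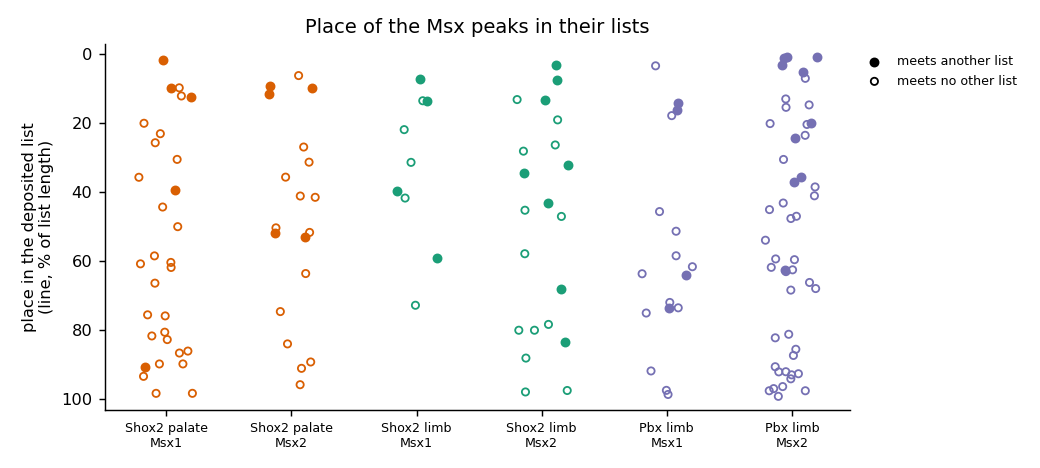
Place of each site in its deposited list (line as % of list length, top of the list at the top), by list and window. Filled points met at least 1 of the other lists, open points met none, and horizontal scatter only separates points. At Msx2 5 of the 6 Pbx peaks in the first 10% of the list met limb Shox2, while the highest Pbx peak at Msx1 met none.

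Within the pairs, midpoints lay farther apart at Msx2. The 7 pairs there were 58.5 to 734.5 bp apart (median 311 bp), against a median of 142 bp over all 8999 pairs, and the 2 pairs at Msx1 were 148 and 162.5 bp apart. The Pbx peaks in these pairs were wide, with a median of 1441 bp at Msx2, against 868 bp for the 41 Msx2 Pbx peaks without limb Shox2. In the whole list the medians were 1068 and 853 bp, a smaller difference in the same direction that was not tested against that at Msx2. With every peak set to 200 bp around its midpoint, 1 of 21 limb Shox2 peaks at Msx2 met Pbx (4.76%, against 16.4% of the whole list). With midpoints at most 500 bp apart, whatever the widths, 5 of 21 did (23.8%, against 24.1% of the whole list).

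Palate Shox2 positions met limb Pbx peaks at 3 of 31 at Msx1 (9.68%, exact interval 2.04 to 25.8%) and at 4 of 19 at Msx2 (21.1%, 6.05 to 45.6%), against 15.6% of the palate list. The Pbx data come from limb, so these are overlaps across tissues. At Msx1 the third site beside the 2 already given was chr5:38359035, in the Pbx peak chr5:38358528-38359944 at line 4785. The neighbouring palate position chr5:38360039 missed the same Pbx peak by 95 bp. Seen from Pbx, 3 of 17 peaks at Msx1 (17.6%) and 4 of 48 at Msx2 (8.33%) held a palate position, against 6.62% of the Pbx list.

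At Msx2 the palate positions on Pbx without limb Shox2 were chr13:53165000, chr13:53278725 and chr13:53852572. The last stood at line 1370 of the palate list. The palate position highest in its list at Msx2, chr13:53307558 at line 929, lay 9.47 kb from the nearest Pbx peak and 10.3 kb from the nearest limb Shox2 peak.

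**Figure D5:**
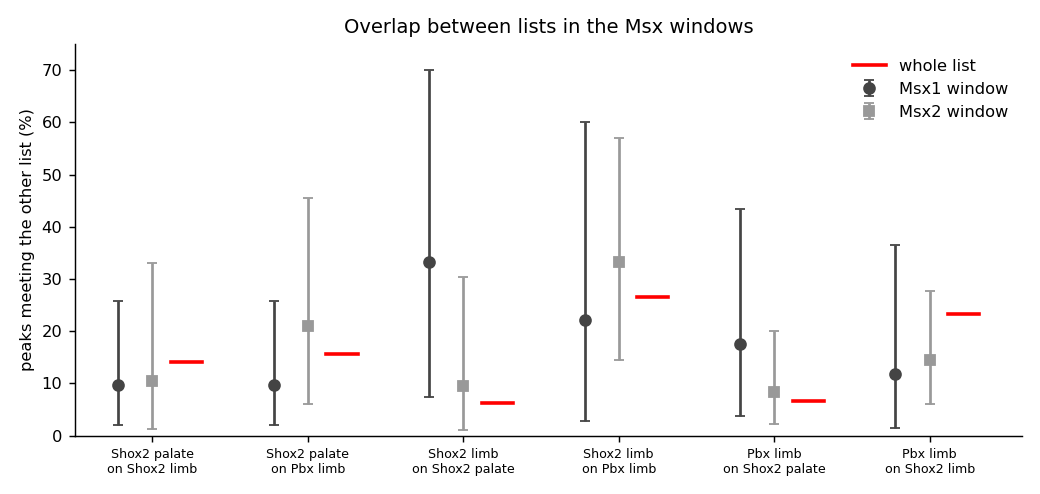
Percent of the sites of one list that met a site of another by at least 1 bp, in the Msx1 window (circles) and the Msx2 window (squares) with exact 95% binomial intervals, and over the whole list (red lines). The whole-list values fall inside the window intervals, except for limb Shox2 on palate Shox2 at Msx1 (3 of 9, 33.3%, interval 7.49 to 70.1%, against 6.28%). That window was picked with its many palate positions known, so nothing is read from the exception.

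Most sites met neither other list, as in the whole lists. At Msx1 this held for 26 of 31 palate positions (83.9%), 5 of 9 limb Shox2 peaks (55.6%) and 13 of 17 Pbx peaks (76.5%). At Msx2 the counts were 14 of 19 (73.7%), 13 of 21 (61.9%) and 38 of 48 (79.2%). The shares over the whole lists were 75.3% for palate Shox2, 69.5% for limb Shox2 and 73.0% for Pbx.

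The members also varied in width and place. Limb Shox2 peaks had a median width of 250 bp at Msx1 and 253 bp at Msx2, against 261 bp in the list. At Msx2, 4 of 21 were 170 bp wide, the narrowest width in the list, which 6.91% of all limb Shox2 peaks have. Of the Msx1 limb Shox2 peaks 7 of 9 stood in the first 50% of their list, and at Msx2 12 of 21 did. For Pbx these counts were 5 of 17 and 23 of 48, and for palate 13 of 31 and 9 of 19.

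The window limits cut close to few sites. The last site inside the Msx2 window was a Pbx peak 1.54 kb from its upper end, and the first limb Shox2 peak outside lay 16.7 kb beyond. At Msx1 the last limb Shox2 peak was 10.5 kb inside the upper end and the first palate position outside was 25.1 kb beyond.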

How the data were processed

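Sites came from 3 deposited peak lists of 1 library each (Shox2 in palate, Shox2 in limb and Pbx in limb, all E12.5) and from a deposited list of co-occupied regions. Reads had been processed with Bowtie and MACS2 on build mm9, per the submitters' processing notes; versions, calling settings and cutoffs: not given in the sources used here. Each deposited list gives a chromosome, a start and an end, with starts shifted here to count from 1. The lists differ in entry width and their cutoffs are not known, so they may not be on one scale. Densities were therefore set beside each list's own mean over the span from its first to its last peak on each chromosome. All 8999 co-occupied regions were identical to the Shox2 limb peaks that met Pbx. Sites met when they shared at least 1 bp. Exact binomial (Clopper-Pearson) intervals of 95% cover counting error only. No test was run, since each group is 1 library and the members, lists and alternatives were chosen with earlier results of these data known. Sites named are, per list, the nearest to the gene, the widest and the highest in file order, all sites in 3 lists, the fullest bins of 50 kb, and further sites chosen after their values were seen. No mm9 genome or annotation was used and no coordinate was converted. The overlap code was tested on simulated data. Python 3.11.15, NumPy 2.4.6, pandas 2.3.3, SciPy 1.17.1 and matplotlib 3.10.9 were used.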

Additional observations from a re-analysis of the deposited data

How the results depend on the processing

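The 14 counts and shares of the windows were recomputed under 76 combinations with an alternative, and 62 stayed within 1.5 times (counts) or within the exact interval (shares). That tally does not measure stability. Cutting the limb lists could not change the palate counts, and membership by any overlap changed no value. The exact intervals are also wide, such as 2.81 to 60.0% for limb Shox2 on Pbx at Msx1. Keeping the first 50% of each list gave 13 palate positions and 5 Pbx peaks at Msx1, and 9 palate positions, 12 limb Shox2 peaks and 23 Pbx peaks at Msx2. Cutting the limb lists to the length of the palate list left 4 Pbx peaks at Msx1, and 10 limb Shox2 and 20 Pbx peaks at Msx2. Shorter lists lower these counts by construction. A window of 300 kb to either side of the gene held 10 Pbx peaks at Msx1 and 13 limb Shox2 peaks at Msx2. At Msx2, limb Shox2 peaks on Pbx came to 60.0% with the cut lists (24.2% over the whole list under that setting) and 4.76% with every peak set to 200 bp (16.4%); the 300 kb window gave 53.8% (26.5%) and the first 50% gave 50% (24.4%). Pbx peaks on limb Shox2 came to 30.0% with the cut lists (22.7% over the whole list) and 2.08% at 200 bp (16.4%). At Msx1, palate positions on Pbx came to 3.23% with the cut lists (9.65% over the whole list) and at 200 bp (9.37%). With narrowed peaks, midpoints over 200 bp apart no longer meet, by construction. No paired analysis was possible because the groups consist of 1 library, and leaving one out would remove its group. Unknown depth limits every statement on a missing site.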

Other observations

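At Msx2, 2 palate Shox2 positions flanked a single limb Shox2 peak without touching it. The peak chr13:53404864-53405055 stood at line 33185 of 33915, and the palate positions chr13:53404813 and chr13:53405200 lay 51 bp and 145 bp outside it, at lines 4054 and 7589. Counting by overlap put these positions among those outside limb Shox2 peaks. With midpoints at most 500 bp apart, 4 of 19 palate positions at Msx2 met limb Shox2 (21.1%), against 19.0% of the palate list.

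Sites of the same window stood on neighbouring lines of a list in 4 cases. The palate positions chr5:38143849 and chr5:38871223, 727 kb apart at Msx1, stood on lines 13540 and 13541. The Pbx peaks chr13:53439018-53439657 and chr13:53844435-53845074 at Msx2, both 640 bp wide, stood on lines 33067 and 33068. The limb Shox2 peaks chr13:53909546-53909715 and chr13:53924149-53924318, both 170 bp wide, stood on lines 27118 and 27119. How the lists were ordered is not stated in the sources used here.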
